A study of Mus musculus with 14 samples.

Results

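The genes of glycolysis and of the response to low oxygen were followed through cultures of mouse lung and skin fibroblasts. The set held 33 genes of the 48795 in the deposited table, chosen by name for what they encode and not by their values: 21 transporters, enzymes and regulators of glycolysis, and 12 genes of the pathway of HIF, the hypoxia-inducible factor. All 33 passed the filter on low counts. The cells had grown out of tissue pieces of male C57BL/6J mice, either wild type or Rel -/- (called Rel-null here), 8 to 10 weeks old. Rel encodes c-Rel, one of the NF-kappaB transcription factors. The groups were wild-type lung (5 libraries, numbered 1, 23, 3, 4 and 5), Rel-null lung (4 libraries, 7 to 10), wild-type skin (2 libraries, 11 and 22) and Rel-null skin (3 libraries, 18 to 20). All cultures were unstimulated, were kept on plastic and were harvested by scraping at day 14. Skin pieces were taken out of the dish after 7 days and the lung protocol names no such step, so tissue and handling cannot be told apart.

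Glycolysis splits glucose into pyruvate with a net gain of ATP, and lactate dehydrogenase turns pyruvate into lactate when it is not burned in mitochondria. HIF-1 is a transcription factor whose alpha subunit is marked for breakdown by oxygen-using prolyl hydroxylases. When oxygen is short the subunit persists, enters the nucleus and switches on many glycolytic genes together with genes of pH control, mitochondrial turnover and vessel growth. Cultured fibroblasts are known for active glycolysis.

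Several libraries stood apart. Library totals were 12780350 to 30987933 counts for 13 libraries and 2663437 for wild-type skin 22. CPM is the count relative to the library total. Of the genes that averaged 5 CPM or more over the other libraries of the tissue, the share at 0 counts (missing genes) was 11.5% for Rel-null lung 7, 8.22% for wild-type skin 11, 5.78% for wild-type lung 4, 3.37% for Rel-null skin 18 and 0.0188 to 0.728% elsewhere. Rel, the deleted gene, read 0.0651 to 4.06 CPM in Rel-null lung and 1.10 to 17.3 CPM in wild-type lung, the lowest being wild-type lung 4. It read 0.0349 CPM in Rel-null skin 18 but 9.42 and 9.47 CPM in the libraries labelled Rel-null skin 19 and 20, near the 11.5 and 10.9 CPM of wild-type skin. Rel-null skin 19 and 20 also read Tpm3-rs7 at 63.3 and 83.3 CPM (wild type 33.4 to 126, the other Rel-null libraries 0.781 to 2.00) and Rps3a3 at 1.66 and 0.469 CPM (wild type 0.0442 to 1.94, the other Rel-null libraries 70.4 to 332), both genes picked because they part the other 12 libraries by genotype label. The labels were kept, so every skin genotype direction, and every skin against lung result called Rel-null here, rests on libraries of which 2 of 3 read these genes near the wild-type level. Xist reads in wild-type lung 1 and wild-type skin 22 went against the label of male mice. Rel-null lung 10 carries a treatment label that says skin and was kept with lung by its title and source. Of 10 fibroblast markers, all 10 had reads in every group, and their sums, given below, varied widely between libraries. Nothing in the labels ties the libraries of a group to different animals, and the p-values then describe only how these libraries vary, which may be technical.

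Levels of the members are given as CPM on TMM-scaled totals, in the library order above. Compared per kb of transcript, the enzymes of the lower pathway, with aldolase, were the most abundant members. In wild-type lung Aldoa (aldolase, which splits the phosphorylated sugar) stood at 1118 ± 162 CPM per kb (mean ± SD, n = 5), Gapdh (which makes NADH) at 1092 ± 177, Pkm (pyruvate kinase, the last ATP-making step) at 1036 ± 178, Ldha (which makes lactate) at 853 ± 135 and Eno1 (enolase) at 598 ± 106. Neighbours among the upper 4 did not differ beyond their spread. Pkm led in both skin groups, at 1073 ± 561 CPM per kb in wild-type skin (n = 2) and 1645 ± 237 in Rel-null skin (n = 3), where Gapdh and Ldha followed. The lowest member per kb in wild-type lung was Car9 (a carbonic anhydrase of the cell surface and a much used hypoxia marker) at 2.02 ± 1.28. Next from the bottom were Eno2, the neuronal enolase, at 6.29 ± 4.41, and Ankrd37, a small ankyrin-repeat protein, at 6.31 ± 3.26, which did not differ beyond their spread.

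Averaged as log2(CPM + 1), the 21 glycolysis genes parted lung from skin in every library. The lung means were 7.93 ± 0.06 (wild type) and 7.81 ± 0.24 (Rel-null), and the skin means 6.83 ± 0.04 (wild type) and 7.21 ± 0.12 (Rel-null; SD, n as above). The lowest lung library (Rel-null lung 7, 7.47) was above the highest skin library (Rel-null skin 19, 7.33). Taken apart, only the 3 regulators of flux, Pfkfb3, Pfkfb4 and Pdk1, parted the tissues (lowest lung 5.53, highest skin 5.23). For the 16 enzymes Rel-null lung 7 (7.95) was below Rel-null skin 18 (8.03). For the 2 transporters Rel-null lung 7 (6.43) was below Rel-null skin 19 (7.05). The 12 HIF genes averaged 6.20 ± 0.22 and 5.61 ± 0.43 in the wild-type and Rel-null lung groups, against 4.64 ± 0.38 and 4.96 ± 0.27 in the corresponding skin groups. The 5 wild-type lung libraries (6.02 to 6.57) were all above the 4 Rel-null lung libraries (4.97 to 5.89). In this class Rel-null lung 7 (4.97) lay among the skin libraries, whose highest was Rel-null skin 19 (5.14).

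**Figure D1:**
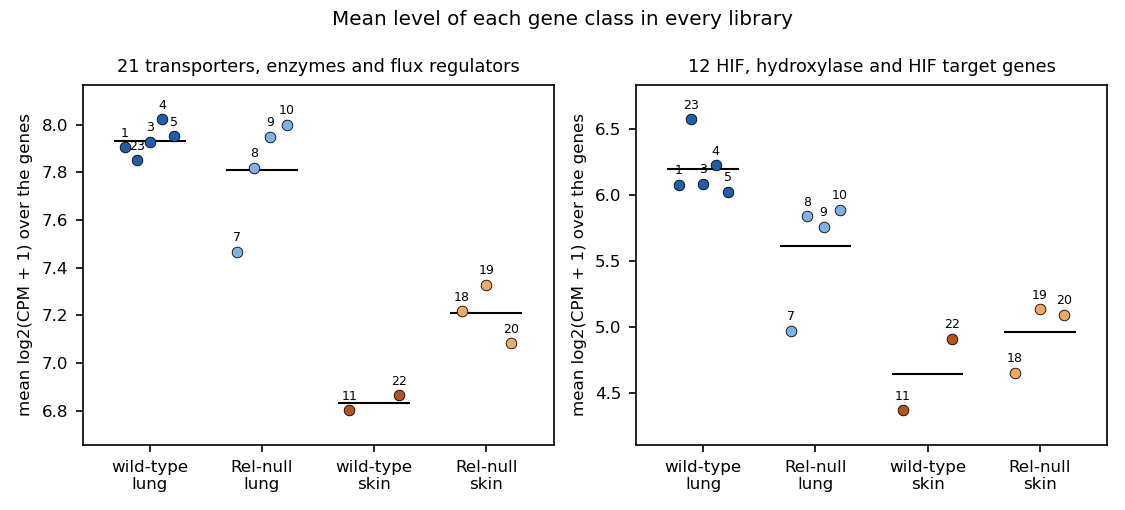
Mean log2(CPM + 1) of the 21 glycolysis genes (left) and the 12 HIF genes (right) in each library (points, with library numbers); lines mark group means, and the vertical axes do not start at 0. All 9 lung libraries lie above all 5 skin libraries on the left, and Rel-null lung 7 is the only lung library within the skin range on the right.

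Skin and lung cultures were compared within each genotype. In wild type, 3 of the 33 members passed the test (edgeR quasi-likelihood F test, Benjamini-Hochberg adjusted p under 0.05), and all 3 were lower in skin, where 2.07% of all 16408 genes tested were called lower and 2.97% in either direction. In Rel-null cultures 5 members passed, again all lower in skin, against 3.23% of all genes called lower and 5.05% called either way. All the called members were of the glycolysis class. The median log2 difference, skin minus lung, was -0.81 over the 21 glycolysis genes, -1.35 over the 12 HIF genes and -0.13 over all genes in wild type, and -0.31, -0.76 and -0.01 in Rel-null cultures. DESeq2 called 12 members in wild type (7.51% of all genes) and 8 in Rel-null cultures (10.8%), all lower in skin. limma-voom called 4 (4.03%) and 17 (27.4%), lower in skin except Hk1 in Rel-null cultures. Leaving out 1 library at a time gave 2 to 8 calls in each genotype, with 8 in both without Rel-null lung 7 (5.04% of all genes for wild type, 8.05% for Rel-null cultures). Without wild-type skin 11 edgeR called 2 members in wild type, Slc16a3 and Adm (1.45% of all genes). Without the 4 libraries with the most missing genes it called 8 in wild type (4.91%) and 9 in Rel-null cultures (12.4%). Without the 2 libraries with Xist reads it called 6 (5.95%) and 7 (6.2%), and without Rel-null skin 19 and 20 it called 3 (2.32%) and 2 (2.34%). Every call of these edgeR fits was lower in skin.

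**Figure D2:**
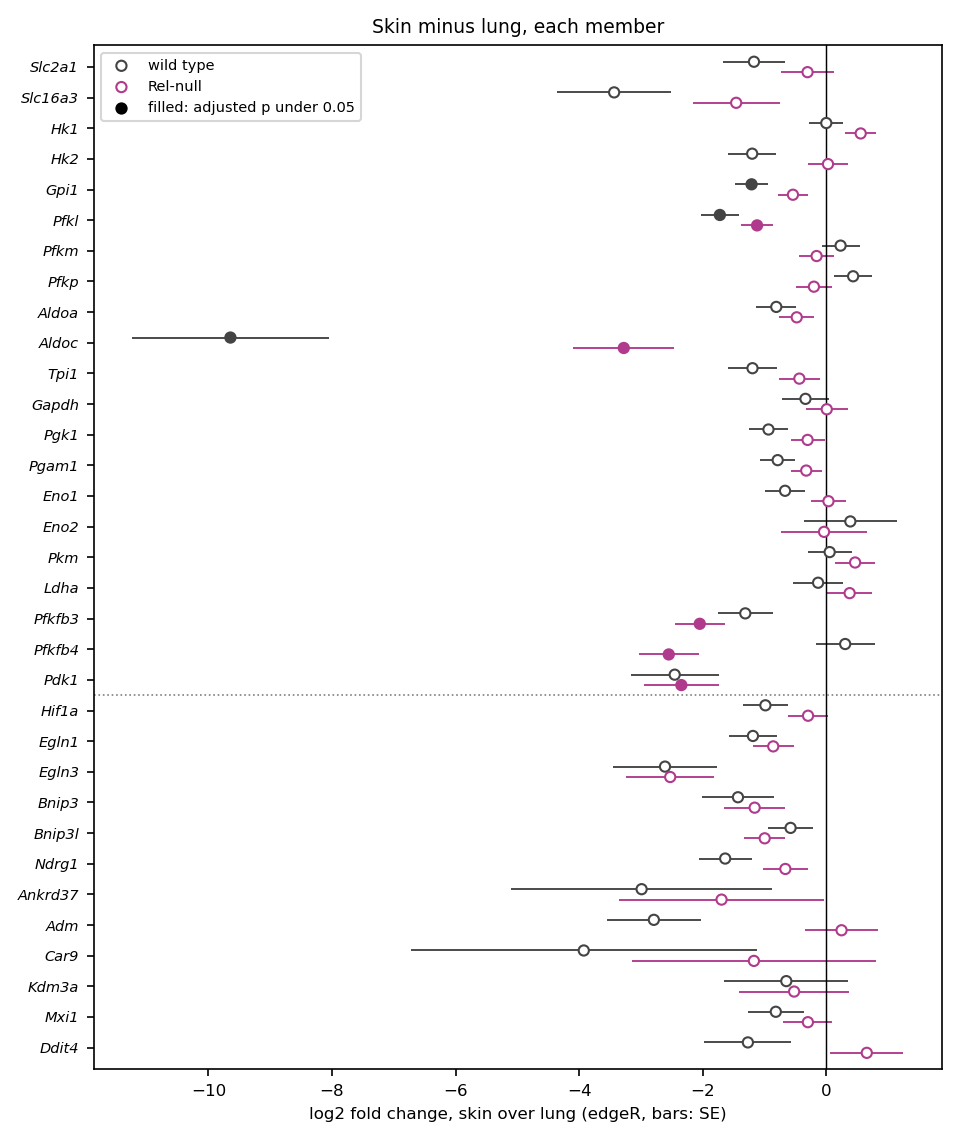
Log2 fold change of skin over lung for each member in wild type (grey) and Rel-null (magenta) cultures, edgeR estimates with SE bars; filled points passed the test and the dotted line parts the 21 glycolysis genes (above) from the 12 HIF genes. The 3 filled grey and 5 filled magenta points all lie below 0, and Aldoc lies farthest out.

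Pfkl was called in both genotypes. It encodes the liver-type subunit of phosphofructokinase-1, the enzyme that commits sugar to glycolysis (ENSMUSG00000020277, GRCm38 chr10:77986947-78010083, minus strand). It stood at 387, 250, 406, 311 and 336 CPM across wild-type lung, 219, 274, 302 and 371 across Rel-null lung, 95.9 and 109 across wild-type skin and 133, 157 and 111 across Rel-null skin. Every lung library was above every skin library. The log2 difference, skin minus lung, was -1.72 ± 0.31 in wild type (SE; edgeR adjusted p = 0.00434) and -1.12 ± 0.26 in Rel-null cultures (adjusted p = 0.0184), or 3.30-fold and 2.18-fold lower. The wild-type call was lost in limma-voom and without wild-type skin 11. The Rel-null call was lost without Rel-null lung 10, without Rel-null skin 18 or 20, and without 19 and 20 together.

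Gpi1 encodes the isomerase just before phosphofructokinase-1 (ENSMUSG00000036427, chr7:34201330-34230336, minus strand). Its levels were 804, 863, 831, 899 and 712 CPM across wild-type lung, 520, 725, 715 and 750 across Rel-null lung, 397 and 312 across wild-type skin and 499, 447 and 449 across Rel-null skin. The lung and skin libraries did not overlap, and the narrowest gap was between Rel-null lung 7 and Rel-null skin 18. In wild type Gpi1 was lower in skin by a log2 difference of -1.21 ± 0.27 (adjusted p = 0.0231), a call lost in 7 of 24 alternatives, among them the fits without wild-type lung 3, either wild-type skin library or Rel-null skin 20. In Rel-null cultures the difference was -0.54 ± 0.24 and did not pass (adjusted p = 0.219).

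Aldoc, the aldolase of brain and some other tissues, was a minor gene with the widest gap (ENSMUSG00000017390, chr11:78322968-78327781, plus strand). It read 47.8, 31.7, 60.7, 14.7 and 57.5 CPM across wild-type lung, 6.19, 87.3, 82.4 and 89.7 across Rel-null lung, 0 and 0.320 across wild-type skin and 4.71, 9.33 and 6.49 across Rel-null skin. Rel-null lung 7 was the one lung library inside the skin range. Wild-type skin held 1 Aldoc count in all. Pooled over its group, wild-type lung had 43.1 CPM against 0.0374 CPM, a ratio of 1152 (95% exact Poisson interval 207 to 45494, for counting error only). The edgeR difference of -9.64 ± 1.59 in wild type (adjusted p = 0.00262) depends on how that count is treated. In Rel-null cultures Aldoc was lower in skin by a log2 difference of -3.28 ± 0.82 (adjusted p = 0.0274), which did not pass in 8 of 24 alternatives, those without any 1 of Rel-null lung 8, 9 or 10 or of Rel-null skin 18, 19 or 20 among them. The wild-type call was lost in limma-voom and without wild-type skin 11.

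The 3 regulators of flux were all called lower in Rel-null skin than in Rel-null lung. Pfkfb3 and Pfkfb4 make and remove the sugar bisphosphate that activates phosphofructokinase-1, and Pdk1 holds pyruvate back from mitochondria by phosphorylating pyruvate dehydrogenase. Pfkfb3 (ENSMUSG00000026773, chr2:11471433-11554077, minus strand) stood at 102, 108, 73.7, 103 and 88.9 CPM across wild-type lung, 54.5, 90.5, 62.6 and 104 across Rel-null lung, 30.0 and 46.7 across wild-type skin and 7.92, 28.8 and 19.8 across Rel-null skin. All lung libraries were above all skin libraries. The difference in Rel-null cultures was -2.05 ± 0.40 (adjusted p = 0.00597) and it passed in all 24 alternatives. In wild type it was -1.31 ± 0.45 (adjusted p = 0.159).

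Pfkfb4 (ENSMUSG00000025648, chr9:108991778-109032228, plus strand) read 14.5, 25.4, 30.2, 30.9 and 21.2 CPM across wild-type lung, 63.1, 39.0, 20.8 and 40.5 across Rel-null lung, 34.0 and 26.2 across wild-type skin and 5.61, 8.65 and 6.63 across Rel-null skin. The 3 Rel-null skin libraries were the lowest of all 14. In Rel-null cultures the tissue difference was -2.55 ± 0.48 (adjusted p = 0.00439), a call lost only without Rel-null skin 19 and 20, and in wild type it was 0.30 ± 0.48 (adjusted p = 0.893). Pdk1 (ENSMUSG00000006494, chr2:71873224-71903858, plus strand), named after its values were seen, ranged from 61.2 to 158 CPM across wild-type lung, 30.0 to 134 across Rel-null lung, 6.10 to 40.0 across wild-type skin and 12.8 to 27.3 across Rel-null skin. Its difference was -2.35 ± 0.60 in Rel-null cultures (adjusted p = 0.0333, lost in 7 of 24 alternatives, without any 1 Rel-null skin library or Rel-null lung 8, 9 or 10 among them) and -2.46 ± 0.71 in wild type (adjusted p = 0.0870).

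**Figure D3:**
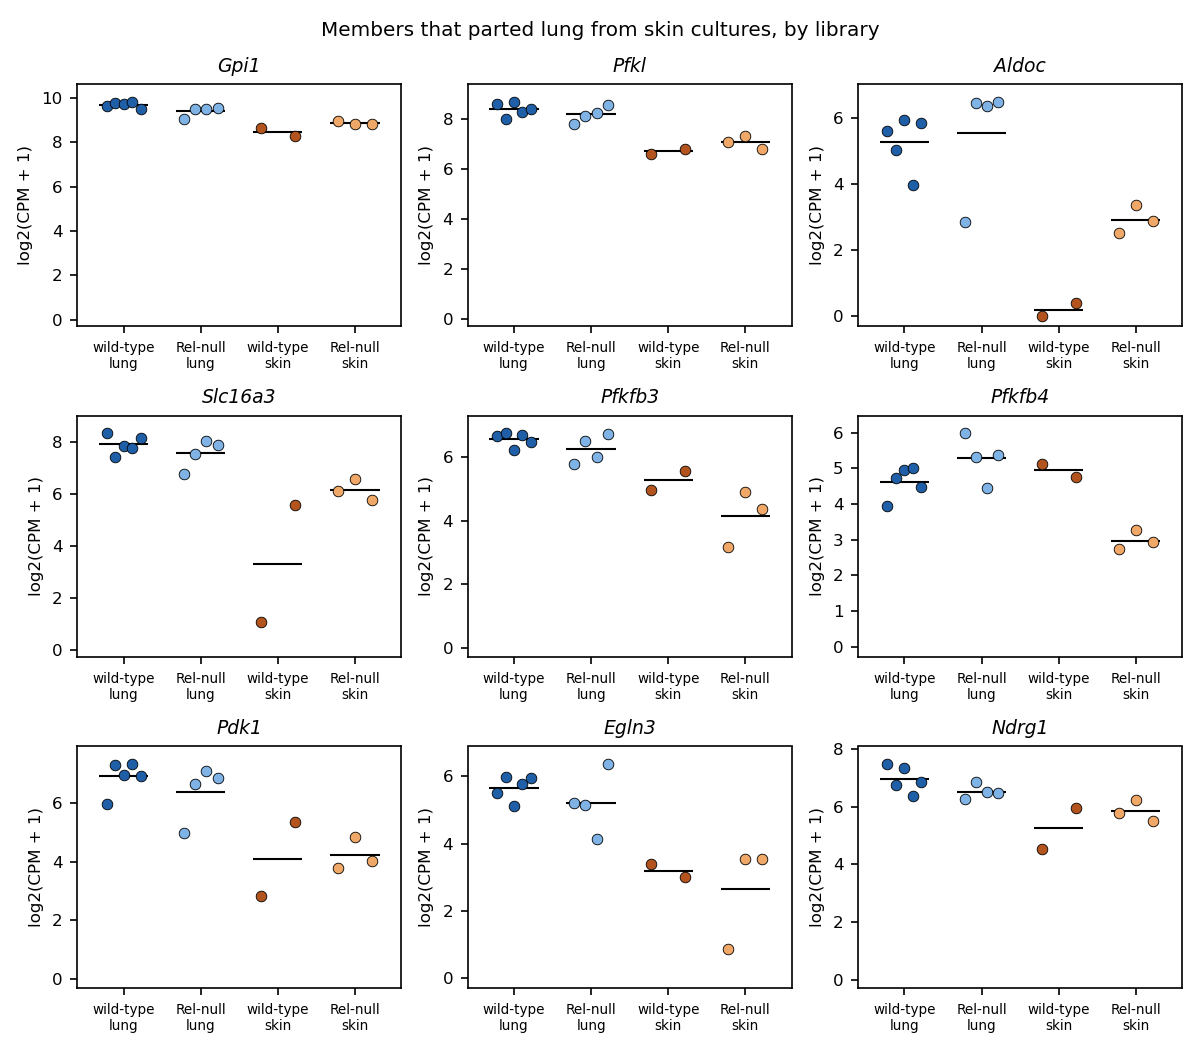
Levels of 9 members as log2(CPM + 1), with one point per library and a line at each group mean: Gpi1, Pfkl and Aldoc (top), Slc16a3, Pfkfb3 and Pfkfb4 (middle), Pdk1, Egln3 and Ndrg1 (bottom). Lung and skin points do not overlap for Gpi1, Pfkl, Slc16a3, Pfkfb3, Egln3 and Ndrg1, while Pfkfb4 is low in the 3 Rel-null skin libraries only.

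In total 6 members had all 9 lung libraries above all 5 skin libraries: Slc16a3, Gpi1, Pfkl, Pfkfb3, Egln3 and Ndrg1. Of all genes tested 3.03% did so. No member had all skin libraries above all lung libraries (1.79% of all genes). The count was 14 without the 4 libraries with the most missing genes (8.98% of all genes), 11 without Rel-null lung 7 alone (5.14%), 8 without Rel-null skin 19 and 20 (3.72%) and 7 without the 2 libraries with Xist reads (4.61%). Slc16a3 exports lactate and ranged from 172 to 330 CPM across wild-type lung and 110 to 264 across Rel-null lung. It read 1.10 CPM in wild-type skin 11 and 46.3 to 96.0 CPM in the other 4 libraries. Its differences of -3.44 ± 0.92 in wild type (adjusted p = 0.0581) and -1.46 ± 0.70 in Rel-null cultures (adjusted p = 0.275) did not pass.

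The other glycolysis genes were not called between tissues in the edgeR fit of all libraries. DESeq2 called Slc16a3, Aldoa, Tpi1 and Pgk1 lower in wild-type skin, and limma-voom called these 4 lower and Hk1 higher in Rel-null skin. Slc2a1, the main glucose importer GLUT1, read 397, 343, 234, 471 and 305 CPM across wild-type lung, 66.4, 229, 236 and 294 across Rel-null lung, 229 and 80.2 across wild-type skin and 150, 179 and 172 across Rel-null skin. The lowest libraries were Rel-null lung 7 and wild-type skin 22, and 4 of the 5 wild-type lung libraries were above all others. Hk2, the inducible hexokinase that traps glucose in the cell, read 223, 99.8, 83.6, 101 and 97.8 CPM across wild-type lung, 98.0, 94.0, 74.7 and 114 across Rel-null lung, 49.9 and 55.3 across wild-type skin and 117, 75.7 and 98.1 across Rel-null skin. Both wild-type skin libraries were below all the others, and the wild-type difference was -1.20 ± 0.38 (adjusted p = 0.128). Pgk1, the first ATP-making enzyme of the pathway, read 423, 491, 524, 581 and 515 CPM across wild-type lung, 330, 445, 667 and 420 across Rel-null lung, 307 and 222 across wild-type skin and 464, 336 and 330 across Rel-null skin. Its wild-type libraries did not overlap between tissues (-0.94 ± 0.31, adjusted p = 0.151), and its Rel-null libraries did.

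The enzymes often used as reference genes spread widely in skin. Gapdh read 1815, 1276, 1577, 1312 and 1775 CPM across wild-type lung, 1396, 1450, 2166 and 1641 across Rel-null lung, 1804 and 646 across wild-type skin and 2030, 1586 and 1390 across Rel-null skin. Ldha read 1658, 1162, 1791, 1463 and 1460 CPM across wild-type lung, 1236, 1367, 1887 and 1406 across Rel-null lung, 2157 and 586 across wild-type skin and 2140, 1726 and 1870 across Rel-null skin. For both genes the shallow library, wild-type skin 22, was the lowest of all 14, and wild-type skin 11 was among the 4 highest. The tissue differences of Gapdh were -0.34 ± 0.38 in wild type and 0.00 ± 0.34 in Rel-null cultures, and those of Ldha -0.14 ± 0.40 and 0.38 ± 0.36. Further enzymes not called by edgeR, with negative differences in both genotypes, were Aldoa (-0.81 and -0.48), Tpi1, which interconverts the triose phosphates (-1.20 and -0.44), and Pgam1, the phosphoglycerate mutase (-0.79 and -0.33). Eno1 stood at -0.67 and 0.03, Pkm at 0.05 and 0.46, Eno2 at 0.39 and -0.04, and Hk1, the housekeeping hexokinase, at -0.00 and 0.55. Pfkm and Pfkp, the muscle and platelet subunits of phosphofructokinase-1, stood at 0.23 and -0.16, and at 0.43 and -0.20.

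In the edgeR fit of all libraries no HIF gene was called between tissues, and the estimates were below 0 for all 12 in wild type and for 10 of 12 in Rel-null cultures. Other fits called some, all lower in skin: DESeq2 called Egln1, Egln3, Ndrg1 and Adm in wild type and Egln3 and Bnip3l in Rel-null cultures. limma-voom called Kdm3a in wild type and Egln1, Egln3, Bnip3, Bnip3l, Ndrg1 and Car9 in Rel-null cultures. Egln3 also passed in edgeR in Rel-null cultures with RLE size factors or without a low-count filter, as did Ndrg1 and Adm in wild type without that filter. In wild type 6 of the 12 had an unadjusted p under 0.05 and in Rel-null cultures 4 of 12, against 13.2% and 19.1% of all genes. Hif1a, the oxygen-regulated subunit, read 359, 656, 440, 455 and 539 CPM across wild-type lung, 293, 347, 290 and 516 across Rel-null lung, 182 and 312 across wild-type skin and 199, 394 and 290 across Rel-null skin. Both wild-type skin libraries lay under the wild-type lung range (-0.99 ± 0.37, adjusted p = 0.216). Egln3, the prolyl hydroxylase that is itself induced by HIF, read 44.4, 61.7, 33.7, 54.3 and 60.7 CPM across wild-type lung, 36.2, 34.5, 16.7 and 82.2 across Rel-null lung, 9.49 and 7.03 across wild-type skin and 0.835, 10.6 and 10.7 across Rel-null skin. No skin library reached the lowest lung library. Its differences of -2.61 ± 0.84 (adjusted p = 0.129) and -2.53 ± 0.71 (adjusted p = 0.0523) did not pass. Egln1, the main oxygen-sensing hydroxylase, stood at -1.19 ± 0.38 and -0.86 ± 0.33.

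Among the other HIF targets, Ndrg1 (a stress-responsive differentiation gene) ranged from 82.0 to 179 CPM across wild-type lung, 75.3 to 115 across Rel-null lung, 22.2 to 61.4 across wild-type skin and 44.7 to 74.4 across Rel-null skin. Its wild-type difference was -1.64 ± 0.43 (adjusted p = 0.0510). Car9 read 3.11, 6.34, 5.61, 0 and 5.41 CPM across wild-type lung, 0, 8.44, 4.24 and 1.43 across Rel-null lung, 0 and 0.639 across wild-type skin and 3.94, 0.429 and 0.288 across Rel-null skin. Its zeros were in 3 of the 4 libraries with the most missing genes, wild-type lung 4, Rel-null lung 7 and wild-type skin 11. Ankrd37 read 3.49, 7.57, 4.20, 10.3 and 3.62 CPM across wild-type lung, 4.25, 1.87, 7.09 and 4.58 across Rel-null lung, 0 and 1.60 across wild-type skin and 0, 0.736 and 3.39 across Rel-null skin. Rel-null skin 20 overlapped the lung range and the other skin libraries were below it. Bnip3l, which like Bnip3 marks mitochondria for removal, had an estimate of -0.58 ± 0.37 in wild type, and ranged from 107 to 168 CPM in Rel-null lung and 63.8 to 83.4 CPM in Rel-null skin (adjusted p = 0.103). The tissue differences of Kdm3a, a histone demethylase, were -0.65 ± 1.00 and -0.52 ± 0.89, and those of Mxi1, an antagonist of Myc, -0.82 ± 0.45 and -0.30 ± 0.40.

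Markers of other cell types differed between tissues. All 13 macrophage markers were lower in skin in both genotypes and 12 of 13 were called, with a median log2 difference of -8.62 in wild type and -7.70 in Rel-null cultures. Their summed CPM spanned 5492 to 22488 for wild-type lung, 7837 to 28240 for Rel-null lung, 39.6 to 119 for wild-type skin and 111 to 159 for Rel-null skin, with none of the 13 at 0 throughout a group. Their part in the tissue differences of the members was not tested. Keratinocyte markers were higher in Rel-null skin than in Rel-null lung for 14 of 14 tested, with 9 called and a median of 9.29, and in wild type 7 of 14 had positive estimates, with 5 called and a median of 1.02. Their sums were 21.9 to 50.6 CPM for wild-type lung, 21.8 to 39.5 for Rel-null lung, 30.7 and 55.8 for wild-type skin and 1267 to 3169 for Rel-null skin. The 9 skeletal muscle markers tested had positive medians in skin, 8.49 and 7.77, with 4 and 3 called higher, and the 10 on the list had sums of 13.6 to 151 CPM for wild-type lung, 34.0 to 857 for Rel-null lung, 88.3 and 1368 for wild-type skin and 578 to 886 for Rel-null skin. Endothelial markers had medians of -5.73 and -5.49 (0 and 1 of 7 called), lung epithelial markers -5.44 and -2.20 (0 of 6 called, and 1 in each direction) and adipocyte markers 0.89 and -0.71 (0 of 3 called), in wild type and Rel-null cultures. Of 10 fibroblast markers 5 had estimates above 0 in skin and 5 below in each genotype, with 1 called each way and medians of -0.29 and 0.10. Their sums were 28660 to 157328 CPM for wild-type lung, 23639 to 69535 for Rel-null lung, 20897 and 33377 for wild-type skin and 11304 to 25704 for Rel-null skin. The part of these lists was not tested either. In bulk RNA, fewer cells of a type and less RNA per cell cannot be told apart.

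The bases before the start sites of the members called in the edgeR fit of all libraries are shown because these 6 genes were all called lower in skin. Bnip3 and Ldha, not called in that fit, were picked by name to stand beside them. They do not stand for the other members not called. Bnip3 was called lower in Rel-null skin by edgeR without Rel-null lung 7 and by limma-voom. Each stretch is the part of the 250 bases upstream of a RefSeq start (GRCm38.p6) that overlaps no annotated exon, at most 150 bases long. Where a gene has several RefSeq starts, only the one with the longest such stretch is shown. At equal length the start with the most hypoxia response cores, marked as described next, was taken, which favours stretches with cores. Capitals mark the hypoxia response core in both of its forms, ACGTG or GCGTG, on either strand (CACGT or CACGC when read on the shown strand).
Gpi1, chr7:34230337-34230419, minus strand: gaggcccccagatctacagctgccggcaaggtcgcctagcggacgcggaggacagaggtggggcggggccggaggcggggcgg
Pfkl, chr10:78009808-78009957, minus strand: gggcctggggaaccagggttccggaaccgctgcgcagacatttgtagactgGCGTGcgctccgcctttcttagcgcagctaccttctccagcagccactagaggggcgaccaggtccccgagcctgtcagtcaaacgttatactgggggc
Aldoc, chr11:78322823-78322967, plus strand: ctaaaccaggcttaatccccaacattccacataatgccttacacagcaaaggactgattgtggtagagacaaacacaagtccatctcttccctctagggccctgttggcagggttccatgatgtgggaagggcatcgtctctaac
Pfkfb3, chr2:11502102-11502251, minus strand: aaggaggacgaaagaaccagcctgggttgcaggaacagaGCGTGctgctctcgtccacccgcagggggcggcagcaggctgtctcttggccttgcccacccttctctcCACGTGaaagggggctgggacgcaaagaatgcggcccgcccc
Pfkfb4, chr9:108991652-108991777, plus strand: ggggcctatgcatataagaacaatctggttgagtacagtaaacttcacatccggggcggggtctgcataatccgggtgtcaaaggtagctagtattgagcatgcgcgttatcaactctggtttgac
Pdk1, chr2:71873074-71873223, plus strand: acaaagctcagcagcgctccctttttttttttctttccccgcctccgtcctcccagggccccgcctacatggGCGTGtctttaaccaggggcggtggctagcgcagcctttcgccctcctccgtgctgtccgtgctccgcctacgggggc
Bnip3, chr7:138909520-138909669, minus strand: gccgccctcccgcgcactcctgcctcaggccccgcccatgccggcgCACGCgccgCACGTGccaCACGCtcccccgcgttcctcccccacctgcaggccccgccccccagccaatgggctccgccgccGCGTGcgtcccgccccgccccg
Ldha, chr7:46845654-46845803, plus strand: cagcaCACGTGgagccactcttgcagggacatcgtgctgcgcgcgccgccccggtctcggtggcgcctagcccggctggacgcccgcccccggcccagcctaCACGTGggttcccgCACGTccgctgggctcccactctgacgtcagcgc

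Of these 8 stretches 5 hold a core and 3, those of Gpi1, Aldoc and Pfkfb4, hold none. The trimming decides this for Aldoc and Pfkfb4: their full 250 bases hold a GCGTG at -50 and at -117 from the start, in the part left out because it overlaps an exon, and the second RefSeq start of Aldoc has a CACGC at -39. In Gpi1 the full 250 bases hold none. The cores begin 99 bases upstream of the start shown in Pfkl, 78 in Pdk1, and 122, 53 and 52 in Pfkfb3. The stretches shown for Pfkl, Pfkfb3 and Ldha lie inside the annotated gene. The outer RefSeq start of Pfkfb3 has 1 core, an ACGTG at -60. The second start of Pdk1 has none, and that of Ldha has 1, a CACGC at -59. In Ldha and Bnip3, as in Pfkfb3, the letters CACGTG carry the core on both strands, and the same letters are the E-box bound by Myc-type factors. RefSeq windows of 300 bases (250 before and 50 after a start) were found for 31 of the 33 members, in 48 windows, and not for Ndrg1 and Bnip3l. ACGTG or its reverse complement occurred in 52.1% of the member windows and in 19.6% of all 32851 windows. GCGTG occurred in 50.0% against 32.4%, either core in 77.1% against 43.8%, and CACGTG in 10.4% against 7.15%. ACGTG matches include every CACGTG, and a match of letters does not show that a factor binds. Windows of the same gene can overlap and hold the same site, as for Aldoa and Eno1. The set of all windows was not matched to the members in base content or expression, and some members were listed as HIF targets.

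Members that encode the same enzyme step were compared as shares of their summed level per kb. Genes outside the set were left out, among them Hk3 and Eno3. Hk3 averaged 62.8 and 80.0 CPM in wild-type and Rel-null lung and 3.96 and 1.07 CPM in the corresponding skin groups. Eno3 averaged 28.9, 82.4, 51.9 and 47.7 CPM in the same order. Pfkl made up 62.8 to 78.7% of phosphofructokinase-1 in the 9 lung libraries and 38.4 to 59.3% in the 5 skin libraries, without overlap. Within skin its share was 38.4 and 40.0% in wild type and 52.8 to 59.3% in the libraries labelled Rel-null. Pfkp took 26.7 and 30.0% in wild-type skin, against 7.31 to 18.3% in all other libraries. Pfkm took 30.0 and 34.9% in wild-type skin and 11.6 to 25.8% in lung, with Rel-null skin between and overlapping both at 23.5 to 32.7%. Hk1 was above Hk2 in all libraries but wild-type lung 1, where its share of Hk1 plus Hk2 was 49.1%. It held 70.3 to 81.0% of that sum in skin and 49.1 to 71.3% in lung, with a small overlap. Aldoc never exceeded 2.58% of Aldoa plus Aldoc, nor Eno2 4.42% of Eno1 plus Eno2. Egln3 made up 15.5 to 53.8% of the 2 hydroxylases in lung and 2.96 to 19.1% in skin.

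**Figure D4:**
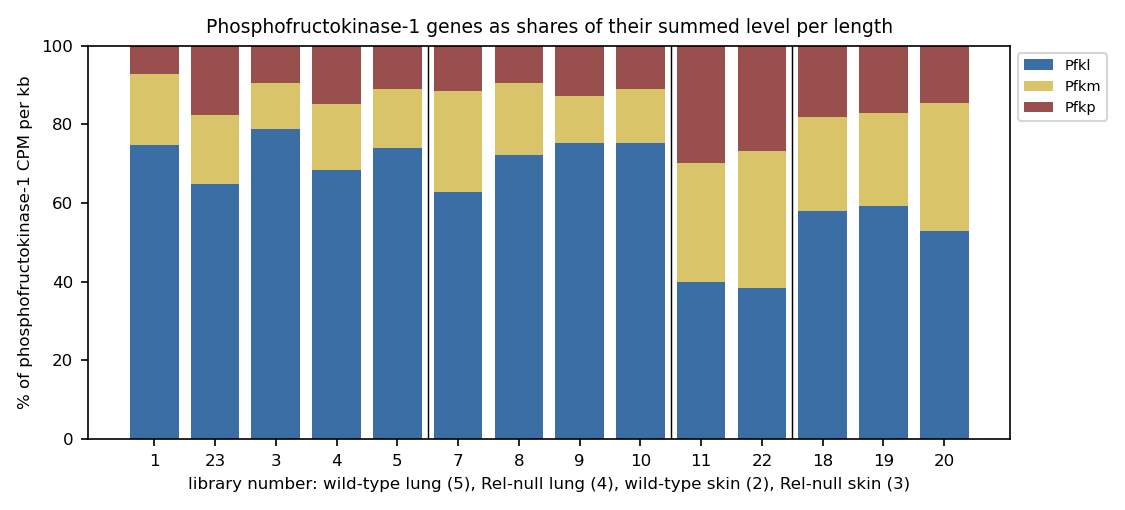
Shares of Pfkl, Pfkm and Pfkp in their summed CPM per kb, one stacked bar per library in percent, with lines between the 4 groups. Pfkl holds 62.8 to 78.7% of each lung bar and 38.4 to 59.3% of each skin bar, with the lowest shares in the 2 wild-type skin libraries.

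The question of the genotype comparison was how loss of Rel alters expression in each tissue. In lung 0 of the 33 members passed in edgeR, as did 0% of all genes. Of the members 3 had an unadjusted p under 0.05, all HIF targets, against 6.31% of all genes. DESeq2 and limma-voom also called 0 members there (0.311% and 0.0366% of all genes). The 12 HIF genes all had estimates below 0 in Rel-null lung, with a median of -0.46, and the 21 glycolysis genes had a median of -0.19, against -0.08 for all genes. The glycolysis median was -0.03 without the 4 libraries with the most missing genes and -0.05 without wild-type lung 4.

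Marker lists also differed between the lung groups, with 0 markers called in any of them by edgeR. The 6 lung epithelial markers all had estimates below 0 in Rel-null lung (median -2.48), as did 8 of 10 fibroblast markers (-0.57) and 3 of 3 adipocyte markers (-0.67), while 10 of 13 macrophage markers lay above 0 (0.67). Wild-type lung 23 and 4 stood apart in summed epithelial markers, at 115 and 168 CPM against 6.07 to 28.6 CPM in the other lung libraries, and in adipocyte markers, at 1281 and 1184 CPM against 219 to 656. Their fibroblast sums, 28660 and 29767 CPM, were the lowest of wild-type lung. The same libraries held the highest lung values of Adm and Bnip3, given next, and the part of these cells in them was not tested.

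In lung the 3 members with the smallest p were Adm, Bnip3 and Ddit4. Adm, the vessel-widening peptide adrenomedullin, read 359, 937, 299, 856 and 161 CPM across wild-type lung and 106, 236, 200 and 128 across Rel-null lung. Wild-type lung 5 lay within the Rel-null range and the other 4 wild-type libraries above it. The log2 difference, Rel-null minus wild type, was -1.64 ± 0.54 (adjusted p = 0.781, exact permutation p = 0.0556 unadjusted). The skin values were 130 and 19.8 CPM (wild type) and 173, 230 and 191 CPM (Rel-null). The tissue difference in wild type was -2.79 ± 0.76 (adjusted p = 0.0651).

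Bnip3 read 93.3, 291, 164, 233 and 121 CPM across wild-type lung, 23.4, 82.2, 134 and 96.7 across Rel-null lung, 69.6 and 64.2 across wild-type skin and 22.5, 47.5 and 42.8 across Rel-null skin. The genotypes overlapped in lung, where Rel-null lung 7 was lowest, and did not overlap in skin. The difference in lung was -1.10 ± 0.43 (adjusted p = 0.781, exact permutation p = 0.0556 unadjusted). As a share of Bnip3 plus Bnip3l per kb, Bnip3 made up 64.9 to 72.2% in wild-type lung and 28.8 to 59.6% in Rel-null lung, without overlap, and 39.4 to 59.1% in skin. Bnip3l itself differed by -0.08 ± 0.28 in lung.

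Ddit4, an inhibitor of the growth kinase complex mTORC1, read 444, 63.0, 77.2, 135 and 117 CPM across wild-type lung, 16.9, 79.9, 77.5 and 91.6 across Rel-null lung, 63.6 and 75.1 across wild-type skin and 113, 98.8 and 101 across Rel-null skin. Wild-type lung 1 was the highest and Rel-null lung 7 the lowest of the lung libraries, and the others overlapped. The lung difference was -1.33 ± 0.54 (adjusted p = 0.781, exact permutation p = 0.143 unadjusted). Over the 24 alternatives the estimate ran from -1.53 to -0.42 for Ddit4, from -1.87 to -0.49 for Adm and from -1.42 to -0.65 for Bnip3, and none passed.

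Egln1 was the only member with all 5 wild-type lung libraries (133 to 167 CPM) above all 4 Rel-null lung libraries (41.9 to 124 CPM), as in 1.43% of all genes, and it had an adjusted p of 0.781 in edgeR. Slc2a1 joined it without wild-type lung 3 (2.02% of all genes), Gpi1 and Adm without wild-type lung 5 (2.29%), and Hif1a without Rel-null lung 10 (4.58%). No member had the reverse order (0.811% of all genes), except Aldoc once Rel-null lung 7 (3.04%) or the 4 libraries with the most missing genes (3.77%) were left out, and Pfkfb4 without Rel-null lung 9 (1.38%). Exact two-sided permutation tests of log2(CPM + 1) were run in lung for the 18 members whose values are printed in full, with 0.00794 as the smallest p that 5 against 4 libraries allow. Egln1 is not one of these 18, so the test was not run for the member with complete separation. Among the 18 the smallest unadjusted p was 0.0397, for Slc2a1 (edgeR -0.76 ± 0.38) and Gpi1 (-0.28 ± 0.21). Hif1a had 0.0952 (-0.44 ± 0.28) and Pfkfb4 0.119 (0.74 ± 0.38), and the other 11 not yet given ran from 0.198 to 0.841.

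Single libraries marked the extremes in lung. Rel-null lung 7 was the lowest lung library for 14 of 33 members, among them Slc2a1, Gpi1, Aldoc, Pdk1 and Bnip3, and was lowest for 24.9% of all genes. Wild-type lung 23 was lowest for 5 members, the abundant enzymes Aldoa, Gapdh, Eno1, Pkm and Ldha (6.34% of all genes). The same library was highest for 6 members, of which Hif1a, Bnip3, Bnip3l and Adm are HIF genes (16% of all genes). Rel-null lung 9 held the highest Aldoa, Gapdh, Pgk1, Pkm and Ldha, and was highest for 10.3% of all genes.

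**Figure D5:**
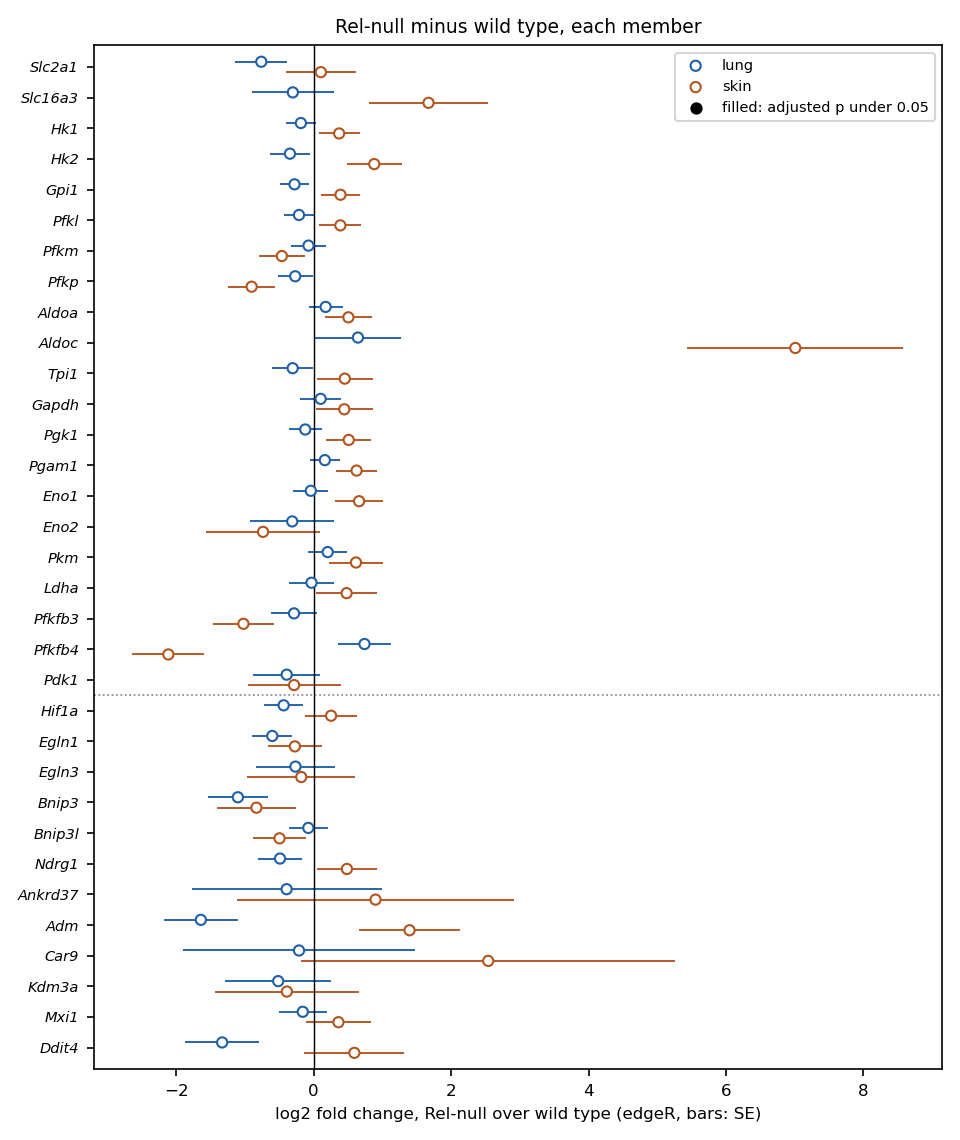
Log2 fold change of Rel-null over wild type for each member in lung (blue) and skin (orange), edgeR estimates with SE bars; a filled point would mark an adjusted p under 0.05 and the dotted line parts the 21 glycolysis genes (above) from the 12 HIF genes. No point is filled, all 12 HIF genes lie below 0 in lung, and Aldoc in skin lies farthest out.

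In skin 0 of 33 members passed in edgeR, as did 0% of all genes, and 5 members had an unadjusted p under 0.05 (6.24% of all genes). DESeq2 called 2 (0.932%), Aldoc higher and Pfkfb4 lower in the libraries labelled Rel-null. limma-voom called 2 others (1.83%), Slc16a3 and Kdm3a, both higher. The edgeR estimate for Kdm3a had the other sign, at -0.39 ± 1.05. Kdm3a read 0.339 CPM in wild-type skin 11, 57.2 CPM in wild-type skin 22 and 18.7 to 23.4 CPM in the libraries labelled Rel-null. The glycolysis genes had a median log2 difference, Rel-null minus wild type, of 0.45 and the HIF genes of 0.31, against 0.01 over all genes. Within the glycolysis class 13 of 16 enzymes (median 0.47) and the 2 transporters had estimates above 0. The 3 regulators of flux were all below 0 (median -1.02). The HIF median was -0.04 without wild-type skin 11, -0.04 without Rel-null skin 20 and -0.47 without Rel-null skin 19 and 20. The glycolysis median was 0.27 without wild-type skin 22 and 0.69 without wild-type skin 11.

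Aldoc, with the values given above, had an estimate of 7.01 ± 1.57 in skin (adjusted p = 0.273). Pooled over groups it stood at 6.37 CPM in Rel-null skin and at 0.0374 CPM in wild-type skin, a ratio of 170 (95% exact Poisson interval 30.6 to 6730, for counting error only). It passed in 6 of 24 alternatives, among them the fits without wild-type skin 22 or without Rel-null lung 7. Pfkfb4 had -2.11 ± 0.52 (adjusted p = 0.383). Pfkp read 42.2, 76.0, 55.3, 74.7 and 55.9 CPM across wild-type lung, 44.4, 40.5, 56.8 and 60.3 across Rel-null lung, 79.9 and 84.1 across wild-type skin and 46.8, 50.7 and 33.9 across Rel-null skin. The 2 wild-type skin libraries were the highest of all 14 for Pfkp, and its skin difference was -0.90 ± 0.34 (adjusted p = 0.714).

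With 2 against 3 libraries, complete separation is frequent. All 3 libraries labelled Rel-null skin were above both wild-type skin libraries for 14 members (14.8% of all genes), 11 of them glycolysis genes: Slc16a3, Hk1, Hk2, Gpi1, Pfkl, Aldoa, Aldoc, Pgk1, Pgam1, Eno1 and Pkm. The 3 HIF genes among them were Adm, Mxi1 and Ddit4. The reverse held for 5 members (10.3% of all genes), Pfkm, Pfkp, Pfkfb3, Pfkfb4 and Bnip3. With only number 18 as Rel-null skin the counts were 17 (29.4%) and 8 (25.4%). Wild-type skin 11 was the lowest skin library for 12 members (26.6% of all genes) and wild-type skin 22 for 11 (18.4%). Those 11 included Slc2a1, Tpi1, Gapdh, Eno1, Pkm and Ldha. Rel-null skin 18 was the highest for 12 (22% of all genes).

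Keratinocyte and adipocyte markers differed with the skin genotype labels. Of 14 tested, 13 had positive estimates in the libraries labelled Rel-null, with a median log2 difference of 5.32 and 0 called. The 15 on the list had sums of 1267 to 3169 CPM there, against 30.7 and 55.8 CPM for wild type. Krt1 had no reads in either group and Krt15 none in wild-type skin. The 3 adipocyte markers all had estimates below 0, with a median of -2.34 and 0 called, and sums of 93.6 to 331 CPM against 401 and 2308 CPM for wild type. Markers of dividing cells had a median difference of 0.88, with sums of 321 to 506 CPM against 199 and 244 CPM. The part of these lists in the members' skin values was not tested.

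The difference between the genotype effects, skin minus lung, was not called for any of the 33 members in edgeR (0% of all genes), and 4 members had an unadjusted p under 0.05 (4.67% of all genes). DESeq2 called 2, Aldoc and Pfkfb4 (0.609%), and limma-voom 2, Slc16a3 and Kdm3a (1.06%). Without wild-type skin 22 edgeR called these 4 genes (2.08% of all genes). The smallest p was that of Pfkfb4, at -2.85 ± 0.65 (adjusted p = 0.452), which combines an estimate of 0.74 in lung with one of -2.11 in skin. Aldoc followed at 6.36 ± 1.71 (adjusted p = 0.668) and Adm at 3.04 ± 0.93 (adjusted p = 0.858), from -1.64 in lung and 1.39 in skin. The class medians were 0.51 for glycolysis and 0.60 for HIF genes, against 0.14 for all genes. The HIF median was 0.00 without Rel-null skin 19 and 20 and 1.5 without wild-type skin 22. The 2 genotype comparisons share no library.

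Neighbouring pathways were read from 5 further lists. Of 26 other genes of glucose and pyruvate handling 23 were tested, and the one call was Hk3, the hexokinase of blood cells, lower in Rel-null skin than in Rel-null lung (-6.26 ± 1.56, adjusted p = 0.0279). In wild type the smallest p in that list was that of Bpgm, which makes bisphosphoglycerate (2.04 ± 0.54, adjusted p = 0.0557). By edgeR 0 of 7 pentose phosphate genes, 0 of 11 HIF subunits and oxygen-sensing genes and 0 of 15 citric acid cycle genes were called in each of the 5 comparisons. Their unadjusted p was under 0.05 for at most 2 genes of a list in any comparison. Epas1, which encodes HIF-2 alpha, had the smallest p of the oxygen-sensing list in wild type, at 2.09 ± 0.78 (adjusted p = 0.216). Its levels were 37.1 ± 20.7 CPM for wild-type lung and 157 ± 187 CPM for wild-type skin, where the spread of the 2 libraries exceeds their mean.

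Of 22 further HIF targets, Plod2, the collagen lysyl hydroxylase, was lower in skin in wild type (-3.11 ± 0.51, adjusted p = 0.00244) and in Rel-null cultures (-3.26 ± 0.43, adjusted p = 2.86e-04). Its wild-type level was 604 ± 92.6 CPM for lung and 70.1 ± 18.8 CPM for skin. Fam162a, a mitochondrial protein, was lower in wild-type skin (-1.11 ± 0.29, adjusted p = 0.0463), and P4ha2, a collagen prolyl hydroxylase, was higher in Rel-null skin than in Rel-null lung (1.70 ± 0.30, adjusted p = 0.00262). Both were named after their values were seen. Vegfa, the vessel growth factor, had the smallest lung genotype p of the list, with -1.87 ± 0.51 (adjusted p = 0.781) and mean levels of 347 ± 222 (wild type) and 94.8 ± 47.1 CPM (Rel-null). The list's lung genotype median was -0.53, with 18 of 22 below 0 and 0 called, and 7 of 22 had an unadjusted p under 0.05. Over all genes the median was -0.08, 55.0% were below 0 and 6.31% had such a p.

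Reads of near-identical copies could be counted in either place. Copies with at least 95% identity over 200 bases were found for 10 members, most for Gapdh with 77, of which 75 were in the table. The copies held at most 1.85% of the combined Gapdh count level and at most 3.64% for any member (Bnip3 in Rel-null lung 8). Several members overlap a gene on the other strand, for example Gpi1 (Gm26762), Tpi1 (Spsb2), Aldoa (Fam57b), Pfkm (Senp1) and Ankrd37 (Lrp2bp and Ufsp2). The strand setting of the count is not given in the sources used here, so their values may include such reads. Pfkm (Gm26513), Pkm (Gm49759) and Hif1a (Gm49321) also overlap exons of a gene on the same strand. Reads there can be ambiguous whatever the strand setting.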

How the data were processed

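RNA from 14 explant cultures was sequenced after a directional library kit, per the labels' protocols. The deposited table holds whole-number counts per gene, not normalized by the authors. STAR 2.4.2a, Trimmomatic 0.33, FastQC 0.11.2 and the build GRCm38 are listed, without roles, in the submitters' processing notes. How reads were assigned to genes (tool, strand, annotation) is not given in the sources used here. Symbols for 48435 of 48795 IDs came from GENCODE M21.

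Counts were fitted with edgeR 4.0.16 (R 4.3.3; TMM, filterByExpr with a minimum count of 10, 4 group means, quasi-likelihood F test), with Benjamini-Hochberg adjustment over 16408 genes and a threshold of 0.05. SE is the absolute log2 fold change over the square root of F. CPM used TMM-scaled totals, and scores are means of log2(CPM + 1). The fit was also run on simulated data, whose outcome is not given here and is not used as support. Alternatives were other scalings and filters, DESeq2 1.42.0, limma-voom (limma 3.58.1), the compared groups alone and libraries left out; fits without the doubted libraries were planned, and the counts of non-overlapping groups without libraries were added after seeing the data. The members and lists were chosen with earlier results of these data known. Values in every library are printed for the 3 members with the smallest p in each comparison and a fixed panel of 12. From the wider lists, the gene with the smallest p in a comparison could be named. Copies were sought with blastn 2.17.0. Poisson intervals cover counting error only.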

Additional observations from a re-analysis of the deposited data

Results flagged for a closer look

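Of 66 sets of member values tested (33 members in each lung group), 6 had a library set apart from the rest by Dixon's criterion, and chance flags about 1 in 20. In wild-type lung, library 1 had Hk2 at 223 CPM (the others 83.6 to 101) and Ddit4 at 444 CPM (63.0 to 135), and library 23 had Aldoa at 1259 CPM (1739 to 1861). In Rel-null lung, library 7 had Gpi1 at 520 CPM (the others 715 to 750), Aldoc at 6.19 CPM (82.4 to 89.7) and Egln1 at 41.9 CPM (110 to 124). Library 7 was also the one with the most missing genes, and library 1 one of the 2 with Xist reads. Whether these facts bear on the values was not tested.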

How the results depend on the processing

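No paired analysis was possible because the groups compared share no library numbers. Under the alternatives 308 values of call counts and class medians stayed near the reported one, 22 medians moved, and 21 call counts rose and 6 fell. A median was near if it moved by less than the pooled SD of the class score (0.149 for glycolysis, 0.323 for HIF genes). Call counts that stayed at 0 are among the 308. No gene called in the edgeR fit of all libraries changed direction. The other values follow.
Members called in skin against lung numbered 7 in wild type without a low-count filter (3.25% of all genes), 12 (wild type) and 8 (Rel-null) in DESeq2, and 17 (Rel-null) in limma-voom. They numbered 8 and 9 without the 4 libraries with the most missing genes, 6 in wild type without the 2 with Xist reads, and 2 in Rel-null cultures without Rel-null skin 19 and 20. Between genotypes in skin 1 member was called without a filter (0.241% of all genes), 2 in DESeq2 (0.932%), 2 in limma-voom (1.83%), 1 without the 4 (0.498%) and 3 without the 2 libraries (2.5%). For the difference of effects the calls were 2 in DESeq2, 2 in limma-voom and 2 without the 2 libraries (2.08% of all genes).
The glycolysis median moved to -0.029 (lung genotype), 0.67 (skin genotype), 0.67 (difference), -1.15 (wild-type tissue) and -0.48 (Rel-null tissue) without the 4 libraries, to 0.64 (skin genotype) without Rel-null skin 19 and 20, and to -0.46 (Rel-null tissue) in limma-voom. The HIF median moved without the 2 libraries to 0.69 (skin genotype), 1.29 (difference) and -1.85 (wild-type tissue), without Rel-null skin 19 and 20 to -0.47 (skin genotype) and 0.0019 (difference), and in limma-voom to 1.00 (difference).
Leaving out single libraries gave 0 to 3 calls (skin genotype, 0 to 2.36% of all genes), 0 to 4 (difference, 0 to 2.08%), 2 to 8 (wild-type tissue, 1.45 to 5.89%) and 2 to 8 (Rel-null tissue, 2.52 to 8.05%). The upper ends of the call counts came without wild-type skin 22 for the first pair and without Rel-null lung 7 for the second. For wild-type tissue the fit without Rel-null lung 7 called 5.04% of all genes, and the 5.89% came without wild-type skin 22. The lower end in wild type came without wild-type lung 3, wild-type skin 11 or Rel-null skin 20, and in Rel-null cultures without Rel-null lung 10 or Rel-null skin 18 or 20. The glycolysis median ran from -0.19 to -0.05 (lung genotype), 0.27 to 0.69 (skin genotype), 0.41 to 0.89 (difference) and -1.14 to -0.72 (wild-type tissue). The HIF median ran from -0.61 to -0.31, -0.040 to 0.65, 0.33 to 1.5 and -1.72 to -1.22 in the same order. The compared groups alone gave no value for the difference. The cause of these shifts was not tested beyond the fewer libraries each fit holds. The 2 wild-type skin libraries, one with 2663437 counts, limit every skin result.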
